A study of Sus scrofa with 15 samples.

Results

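The 8 genes described here are immediate-early response genes, and they are 8 of the 16660 genes with counts in 15 libraries of LLC-PK1 cells. LLC-PK1 is an epithelial line from the renal proximal tubule of a male Hampshire pig. The genes are JUNB (ENSSSCG00000013735), FOSL1 (ENSSSCG00000012967), EGR2 (ENSSSCG00000010224), EGR3 (ENSSSCG00000009630), KLF6 (ENSSSCG00000035212), IER3 (ENSSSCG00000027607), DUSP1 (ENSSSCG00000016991) and ZFP36 (ENSSSCG00000028056). They were picked by name with the differences of these same libraries from the control already known, so their differences from the control are a description and carry no test. All 8 passed the filter of a mean of 2 CPM (counts scaled to library size) over the 15 libraries, as did 11553 of the 16660 genes.

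The question was what overexpression of wild-type or mutant human PKD2, a gene of autosomal dominant polycystic kidney disease, does to the transcripts of tubule cells. Cells in M199 medium with 3% serum were transiently transfected by lipofection with 3 µg of plasmid, and 3 wells per plasmid were used for RNA 48 h later. NC cells received the empty plasmid, so they underwent lipofection like the others. WT cells received human wild-type PKD2, Tg1 cells PKD2 with the D511V change, Tg2 cells PKD2 with the L656W change, and Tg3 cells PKD2 with the R742X change, which removes the C-terminal tail. The transgene was driven by the CAG promoter, which is active in most cell types, and the pig's own PKD genes were present in all 5 groups. The cells were neither sorted nor selected, so a well mixes cells with and without plasmid, and in such bulk RNA a change in fewer cells and a smaller change in all cells cannot be told apart. The replicates are wells of the same line, so p-values measure the spread between wells.

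Immediate-early genes are switched on by signals such as growth factors, serum, calcium and stress through factors that the cell already holds, without new protein synthesis. The extracellular signal-regulated kinase (ERK) and the other mitogen-activated protein kinases (MAPK) act on serum response factor and its partners at many of their promoters. The transcripts are short-lived, and some of the products, DUSP1 and ZFP36 among them, limit the same response by removing phosphate from MAPKs or by promoting the decay of mRNAs with AU-rich elements. In kidney tubules these genes are known for their response to injury and mitogens. Only the 48 h time was measured here.

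Totals per library ranged from 20216200 to 26132196 counts, and the counts of the 8 genes from 59 for EGR3 in the lowest library to 17398 for ZFP36 in the highest. Wells of the same plasmid were further apart than sampling of reads would give (chi-square over its degrees of freedom, about 1 for sampling alone): it was 2.90 at the least, between replicates 1 and 3 of Tg3, and 46.6 at the most, between replicates 2 and 3 of WT. WT replicate 2 stood apart from the other WT libraries, and the calls that changed in WT comparisons without it are given beside the results. It was singled out after the data were seen, although leaving out each library in turn was planned. Of the tubule markers, all 6 epithelial genes and all 12 proximal tubule genes that were looked up had a mean of at least 2 CPM, whereas no endothelial gene of 4 did. COL1A2 was the fibroblast gene of 5 that did, at a mean of 923 CPM, while COL3A1 was at 0.347 CPM. The leukocyte genes CD14 and CD3E were at 8.16 and 20.5 CPM, while PTPRC, which defines leukocytes, was at 0.0167 CPM.

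JUNB and FOSL1 encode subunits of AP-1, the dimeric transcription factor of Jun and Fos proteins. Both had higher levels in the libraries of every genotype than in NC, with the exception of FOSL1 in Tg1 replicate 1. JUNB was at 122, 113 and 131 CPM in NC, at 151, 148 and 143 CPM in WT, at 145, 162 and 177 CPM in Tg1, at 166, 179.7 and 178 CPM in Tg2 and at 157, 136 and 163 CPM in Tg3. The lowest JUNB level with a PKD2 plasmid was in Tg3 replicate 2 and still lay above the highest NC library. The log2 fold change of JUNB against NC was 0.27 for WT, 0.41 for Tg1, 0.52 for Tg2 and 0.32 for Tg3 (SE 0.08). FOSL1 was at 60.6, 71.1 and 59.8 CPM in NC, at 98.2, 82.0 and 86.1 CPM in WT, at 67.1, 92.2 and 98.3 CPM in Tg1, at 102, 109 and 102 CPM in Tg2 and at 91.2, 80.7 and 82.3 CPM in Tg3. The 3 Tg2 libraries held the highest FOSL1 levels of all 15, with a mean of 104 ± 3.87 CPM (SD, n = 3) against 63.9 ± 6.30 CPM (SD, n = 3) in NC. Its log2 fold change against NC was 0.47 for WT, 0.43 for Tg1, 0.71 for Tg2 and 0.41 for Tg3 (SE 0.12).

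EGR2 and EGR3 encode zinc finger transcription factors of the early growth response family, and they were the members with the lowest counts and the widest spread between wells. EGR2 was at 7.67, 8.74 and 9.02 CPM in NC, at 19.7, 10.1 and 19.6 CPM in WT, at 10.9, 14.5 and 13.9 CPM in Tg1, at 11.4, 13.99 and 13.5 CPM in Tg2 and at 14.5, 8.24 and 13.1 CPM in Tg3. WT replicates 1 and 3 had the highest EGR2 levels of all, WT replicate 2 lay just above the highest NC library, and Tg3 replicate 2 lay among the NC libraries. EGR3 was at 2.60, 3.55 and 5.28 CPM in NC, at 13.1, 4.86 and 11.6 CPM in WT, at 5.09, 5.63 and 8.82 CPM in Tg1, at 5.92, 8.98 and 8.82 CPM in Tg2 and at 7.30, 3.99 and 7.92 CPM in Tg3. All Tg2 libraries lay above all NC libraries, whereas WT, Tg1 and Tg3 each had a library below NC replicate 3. The log2 fold change against NC was 0.96 for WT, 0.63 for Tg1, 0.61 for Tg2 and 0.50 for Tg3 (SE 0.23 to 0.24) for EGR2. It was 1.36 for WT, 0.76 for Tg1, 1.04 for Tg2 and 0.75 for Tg3 (SE 0.37 to 0.38) for EGR3, the largest among the 8 genes in each genotype and the least precise. Transcripts of related sequence can share reads in transcript quantification, so the split of counts between EGR2 and EGR3 is uncertain to that extent.

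KLF6, a zinc finger factor of the Krüppel-like family, was at 51.3, 56.1 and 56.0 CPM in NC, at 71.6, 59.7 and 81.0 CPM in WT, at 49.4, 62.2 and 64.0 CPM in Tg1, at 63.5, 66.2 and 67.0 CPM in Tg2 and at 59.6, 57.1 and 56.9 CPM in Tg3. Its WT mean of 70.8 ± 10.7 CPM (SD, n = 3) was the highest of the 5 groups, and WT replicates 1 and 3 were the highest libraries. KLF6 had the smallest differences from NC among the 8 genes in Tg1 and Tg3, and Tg1 replicate 1 was the lowest of all 15 libraries. Against NC it had log2 fold changes of 0.38 for WT, 0.10 for Tg1, 0.27 for Tg2 and 0.09 for Tg3 (SE 0.10).

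IER3 encodes a short stress-inducible protein that modulates apoptosis and ERK signalling. It was at 179, 195 and 186 CPM in NC, at 284, 223 and 278 CPM in WT, at 229.7, 264 and 269 CPM in Tg1, at 272, 321 and 281 CPM in Tg2 and at 259, 229.6 and 249 CPM in Tg3. No library with a PKD2 plasmid overlapped with NC, and the Tg2 mean of 291 ± 26.1 CPM (SD, n = 3) was the highest. Relative to NC this gave log2 fold changes of 0.49 for WT, 0.44 for Tg1, 0.64 for Tg2 and 0.40 for Tg3 (SE 0.09).

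DUSP1 encodes a nuclear phosphatase that inactivates MAPKs. It was at 403, 404 and 448 CPM in NC, at 620.2, 463 and 590.5 CPM in WT, at 482, 577 and 571 CPM in Tg1, at 484, 609.8 and 575 CPM in Tg2 and at 515, 439 and 507 CPM in Tg3. All WT, Tg1 and Tg2 libraries lay above NC, whereas Tg3 replicate 2 lay below NC replicate 3. The log2 fold change against NC was 0.41 for WT, 0.38 for Tg1, 0.41 for Tg2 and 0.22 for Tg3 (SE 0.11). ZFP36 encodes tristetraprolin, which binds AU-rich elements and promotes mRNA decay. It was at 439, 503 and 468 CPM in NC, at 561, 619 and 499 CPM in WT, at 568, 685 and 687 CPM in Tg1, at 669, 743 and 643 CPM in Tg2 and at 626, 576 and 575 CPM in Tg3. All libraries of the 3 mutants lay above NC, whereas WT replicate 3 lay below NC replicate 2. On the log2 scale it differed from NC by 0.25 for WT, 0.46 for Tg1, 0.54 for Tg2 and 0.33 for Tg3 (SE 0.09). The lowest genotype mean of ZFP36 was in WT, although that mean of 559.7 ± 59.8 CPM (SD, n = 3) and the Tg3 mean of 593 ± 29.0 CPM (SD, n = 3) differed by less than their spread.

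**Figure D1:**
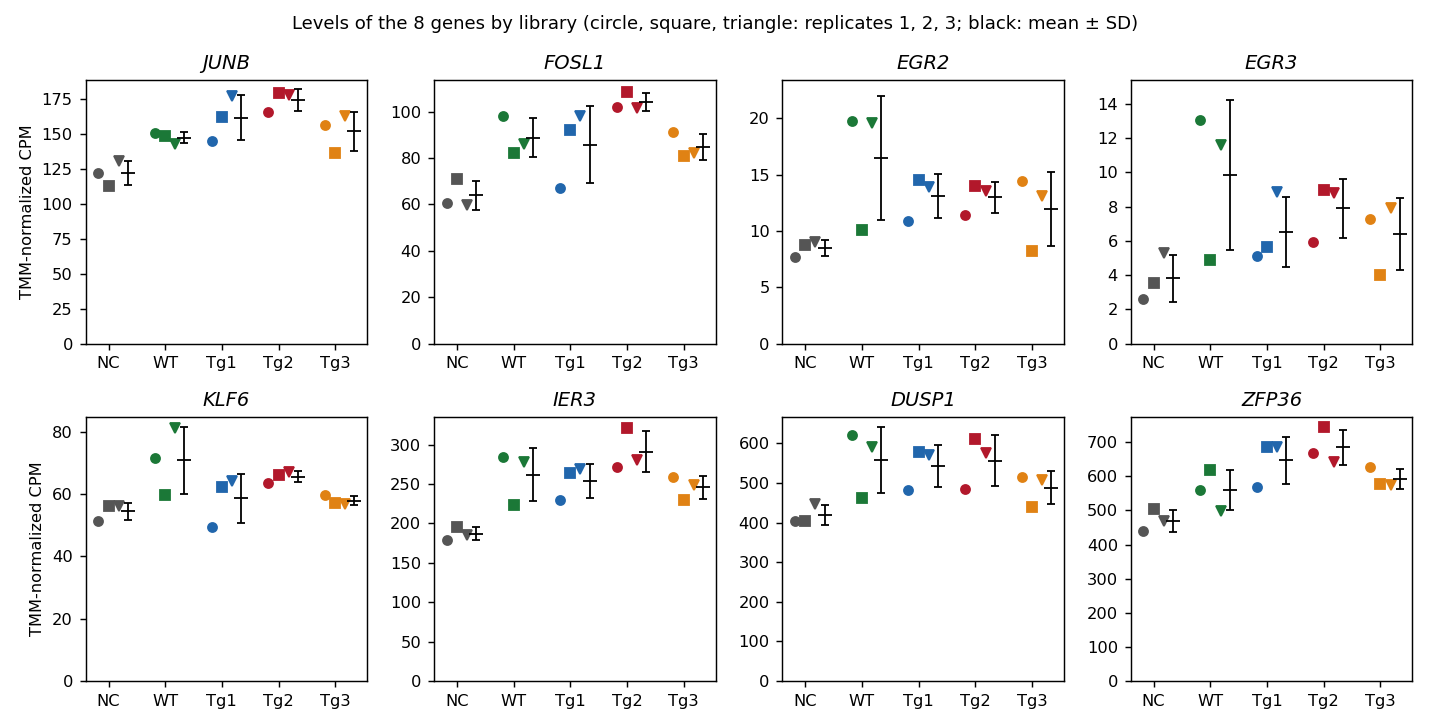
Levels of the 8 genes in TMM-normalized CPM (vertical axes, starting at 0) in the 3 libraries of each plasmid (horizontal axes); circles, squares and triangles are replicates 1, 2 and 3, and the black bars are the mean and SD. IER3 and JUNB are higher in all 12 libraries with a PKD2 plasmid than in any NC library, and WT replicate 2 lies well below the other WT libraries for EGR2, EGR3 and DUSP1.

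NC had the lowest mean of the 5 groups for each of the 8 genes, which follows from how the genes were picked. The group with the highest mean was either Tg2 or WT. For JUNB, FOSL1, IER3 and ZFP36 the Tg2 mean was the highest, and for KLF6, EGR2, EGR3 and DUSP1 the WT mean was. Tg3 was next above NC for 6 genes, and WT was for JUNB and ZFP36. Most neighbours in these orders differed by less than their pooled SD. The exceptions between groups with a PKD2 plasmid were Tg1 and Tg2 for JUNB and KLF6, WT and Tg2 for FOSL1, Tg3 and Tg1 for DUSP1, and Tg3 and Tg1 for ZFP36, and among these only the libraries of WT and Tg2 for FOSL1 did not overlap.

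**Figure D2:**
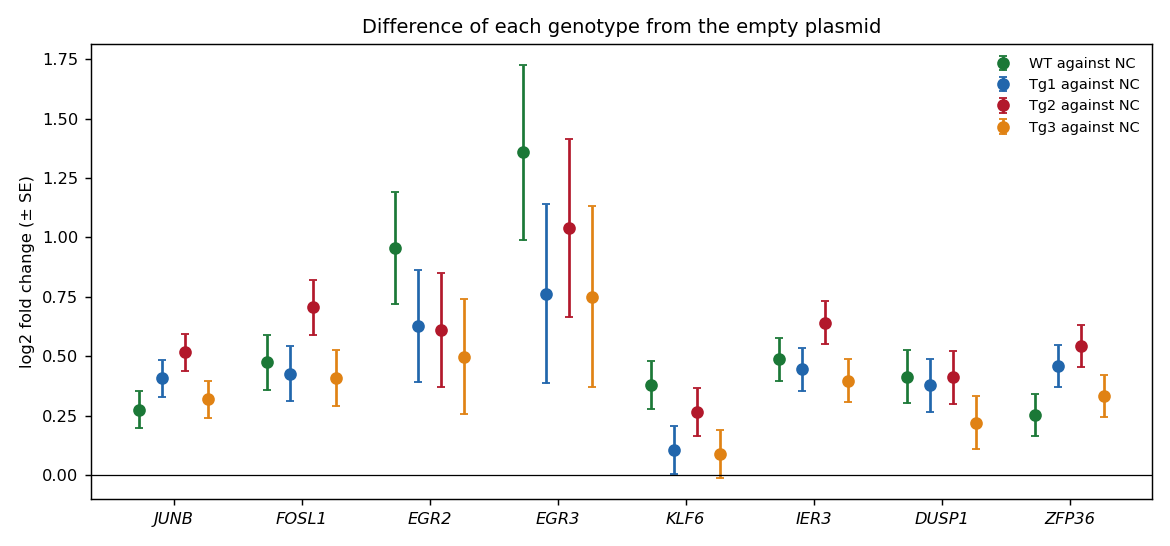
Log2 fold change of each genotype against NC (vertical axis, points with SE) for the 8 genes (horizontal axis), from the fit with all 15 libraries. All points lie above 0, which the choice of the genes favours, and the SE is widest for EGR3, at 0.37 to 0.38.

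Counts of called genes stand here as a description, because these comparisons picked the genes. Genes counted as called had, in edgeR's quasi-likelihood test, an adjusted p-value no higher than 0.05 together with a log2 fold change of at least 0.26 in size. Against NC, 0 of the 8 genes were called in WT, where 0% of all genes tested were called, although all 8, and 524 genes in all, had p under 0.05 before adjustment. DESeq2 called 11 genes there, of which 3 were members, namely DUSP1, FOSL1 and IER3. In Tg1, edgeR called IER3, JUNB and ZFP36 higher, where 0.182% of all genes were called higher and 1.01% lower. In Tg2 it called these 3, DUSP1 and FOSL1 higher, where 4.73% of all genes were called higher and 3.7% lower. Without NC replicate 3 or without Tg2 replicate 2, edgeR called no gene at all in Tg2 against NC, with 2749 and 3017 genes at p under 0.05 before adjustment, of which 8 and 7 were members. In Tg3 it called 0 of the 8 and 0% of all genes, with 4 members and 2089 genes at p under 0.05 before adjustment, whereas DESeq2 called 52 genes, of which FOSL1, IER3, JUNB and ZFP36 were members. The median log2 fold change of the 8 genes was 0.44 for WT, 0.44 for Tg1, 0.58 for Tg2 and 0.37 for Tg3, and that of all genes tested lay within 0.01 of 0 in each. These 4 comparisons share the NC libraries.

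The number of members with all 3 genotype libraries above all 3 NC libraries was 6 for WT, 5 for Tg1, 8 for Tg2 and 5 for Tg3. Among all genes tested the share was 3.73%, 11.9%, 17.5% and 13.4%. In IER3 and JUNB all 12 libraries with a PKD2 plasmid lay above all NC libraries, as in 0.675% of all genes tested. In the sums of marker genes, which could move with these differences, the epithelial genes ranged from 3619 to 3755 CPM in NC and from 3735 to 4148 CPM in the genotypes. The proximal tubule genes ranged from 1733 to 1919 CPM in NC and lay below that in Tg2, at 1385 to 1701 CPM, and in Tg3, at 1433 to 1630 CPM. They ranged from 1627 to 1941 CPM in WT and from 1623 to 1799 CPM in Tg1. The part of these shifts in the members' differences was not tested.

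The comparison of each mutant with WT asks whether the form of PKD2 mattered for these genes, and it was not among the comparisons that picked them, although it shares the genotype libraries. With all 15 libraries, edgeR called none of the 8 genes in any mutant against WT. For ZFP36 and JUNB the Tg2 libraries lay above the WT libraries without overlap, and their estimates came nearest to the threshold. ZFP36 had a log2 fold change of 0.29 (95% interval 0.10 to 0.48, adjusted p = 0.0518 from edgeR) in Tg2 against WT. JUNB had 0.24 (95% interval 0.08 to 0.41, adjusted p = 0.0560 from edgeR). FOSL1 in Tg2 also lay above WT without overlap, with 0.23 (95% interval -0.02 to 0.48, adjusted p = 0.170 from edgeR). DESeq2 called ZFP36 (log2 fold change 0.29, adjusted p = 0.0226). These 3 of 8 genes stand beside 12% of all genes tested whose Tg2 libraries lay above WT without overlap and 12.4% with Tg2 below.

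The share of all genes called was 5.92% in Tg2 against WT, 0.0692% in Tg1 against WT and 0% in Tg3 against WT. Before adjustment, p was under 0.05 for 2 members and 3964 genes in Tg2, 2 members and 1806 genes in Tg1, and 1 member and 2215 genes in Tg3. DESeq2 called 116 genes in Tg3 against WT and none of the 8. The members in Tg1 were KLF6, with a log2 fold change of -0.27 (95% interval -0.49 to -0.06, adjusted p = 0.229 from edgeR), and ZFP36, with 0.21 (95% interval 0.02 to 0.40, adjusted p = 0.281 from edgeR). KLF6 was also the member in Tg3, where its 3 libraries lay below the WT libraries. Its log2 fold change there was -0.29 (95% interval -0.51 to -0.07, adjusted p = 0.169 from edgeR). No other member had libraries apart from WT in Tg1 or Tg3, where 8.45% of all genes lay above and 8.45% below WT in Tg1, and 10.3% above and 10.3% below in Tg3.

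The intervals show what these wells could and could not resolve. For DUSP1 in Tg2 against WT the log2 fold change was -0.00 with a 95% interval of -0.24 to 0.23. For IER3 the estimates were -0.04 (95% interval -0.24 to 0.15) in Tg1, 0.15 (-0.04 to 0.35) in Tg2 and -0.09 (-0.28 to 0.11) in Tg3. EGR2 and EGR3 had negative estimates in each mutant, from -0.46 to -0.33 for EGR2 and from -0.61 to -0.32 for EGR3. The interval of EGR3 in Tg1 ran from -1.34 to 0.15, so neither a marked fall nor a small rise could be told from the WT level.

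Leaving out WT replicate 2, which was singled out after the data were seen, changed calls in the comparisons with WT. That library was the lowest WT library for 6 of the 8 genes (41.6% of all genes tested were lowest there) and the highest for ZFP36. Without it, edgeR called 5 members higher in WT than in NC, namely DUSP1, EGR2, EGR3, IER3 and KLF6, where 0.208% of all genes were called higher. Their log2 fold changes were 0.53, 1.21, 1.68, 0.59 and 0.49. The estimate of ZFP36 moved the other way, from 0.25 to 0.17. WT against NC is among the comparisons that picked the members, so its calls are a description only.

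Against WT without that library, the estimate for EGR2 on the log2 scale was -0.58 in Tg1, -0.60 in Tg2 and -0.71 in Tg3, and the edgeR adjusted p was 0.0441, 0.0179 and 0.0201 in that order. KLF6 was called lower in Tg1 (-0.38) and Tg3 (-0.40), and EGR3 (-0.93) and DUSP1 (-0.31) were called lower in Tg3. ZFP36 was called higher in Tg2, with 0.37 (adjusted p = 0.00705 from edgeR). In total 2 members were called lower in Tg1, 1 higher and 1 lower in Tg2, and 4 lower in Tg3. Many genes were called in this fit, with 4.28% of all genes higher and 3.12% lower in Tg1, 12.1% and 8.85% in Tg2, and 7.25% and 4.18% in Tg3. WT is then 2 libraries, whose spread is taken to be like that of the other groups.

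**Figure D3:**
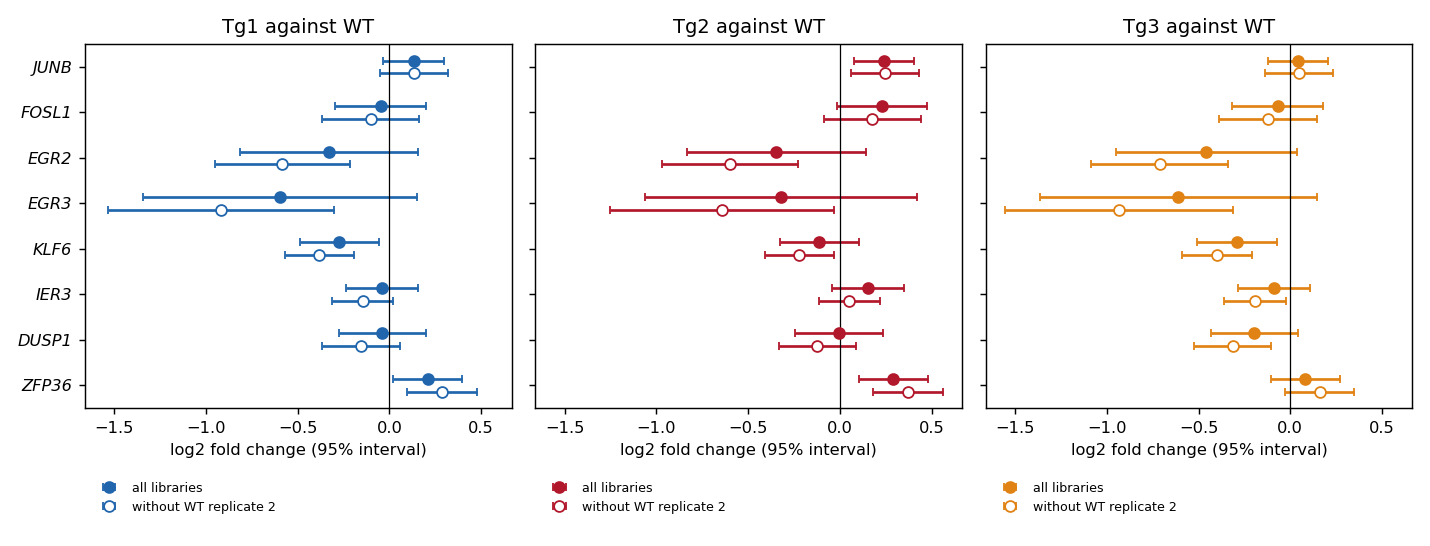
Log2 fold change of Tg1, Tg2 and Tg3 against WT (horizontal axes, with 95% intervals) for the 8 genes (vertical axis), with all libraries (filled) and without WT replicate 2 (open). EGR2, EGR3, KLF6 and DUSP1 shift to lower estimates without that library, and ZFP36 to higher ones, up to 0.37 in Tg2.

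Between the mutants, edgeR called none of the 8 genes, where it called 0.138% of all genes in Tg1 against Tg2, 0.615% in Tg1 against Tg3 and 0% in Tg2 against Tg3. All 8 estimates were above 0 in Tg2 against Tg3, with a median log2 fold change of 0.20 beside 0.00 for all genes tested. The largest was that of FOSL1, at 0.30 (95% interval 0.05 to 0.55, adjusted p = 0.822 from edgeR). Before adjustment, p was under 0.05 for 4 members and 673 genes, and DESeq2 called 0 genes. In Tg1 against Tg2, p was under 0.05 before adjustment for 2 members and 2284 genes. These were FOSL1 at -0.28 (95% interval -0.53 to -0.03) and IER3 at -0.20 (95% interval -0.39 to -0.00). In Tg1 against Tg3 this held for none of the members and 1828 genes.

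Within a group, the 8 genes mostly went up and down together from well to well. In Tg1 replicate 1 all 8 were at their lowest of the 3 Tg1 wells, where 36.8% of all genes tested were at their lowest. In WT replicate 2 and Tg3 replicate 2 it was 6 of 8, beside 41.6% and 38.1% of all genes, and 6 of 8 also in NC replicate 1 and Tg2 replicate 1, beside 26.9% and 31.3%. The deviation of EGR3 from its group mean was -0.88 on the log2 scale in WT replicate 2, and that of EGR2 was -0.64. Over the 15 libraries, the deviations of the 28 pairs of members from their group means had a median Pearson r of 0.626 and Spearman rho of 0.580, with r from -0.01 to 0.903, beside a median r of 0 for all pairs of genes tested. The 10 pairs among IER3, KLF6, EGR2, EGR3 and DUSP1 had values from 0.689 to 0.903, and IER3 with FOSL1 had 0.741. No rule for grouping the genes of these 10 pairs is given, so their range is a description only. ZFP36 had a median r of 0.108 with the other members, and its highest WT level was in the well where most members were lowest. In the mean deviation of the 8 members, WT replicate 2 and Tg1 replicate 1 lay farthest from their groups. They were picked by that deviation, which favours a lower r. Without them, the median r of the 28 pairs was 0.408. That of the 7 pairs with ZFP36 was 0.389, and that of the 21 pairs without ZFP36 fell from 0.689 to 0.433. The median r of the 10 pairs among IER3, KLF6, EGR2, EGR3 and DUSP1 fell from 0.842 to 0.663. Their range became 0.283 to 0.800. For ZFP36, r rose with FOSL1 (0.846), IER3, EGR2, EGR3 and DUSP1, and fell with JUNB (0.0805) and KLF6 (0.0664). These points share a library and its depth, and they are no test.

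**Figure D4:**
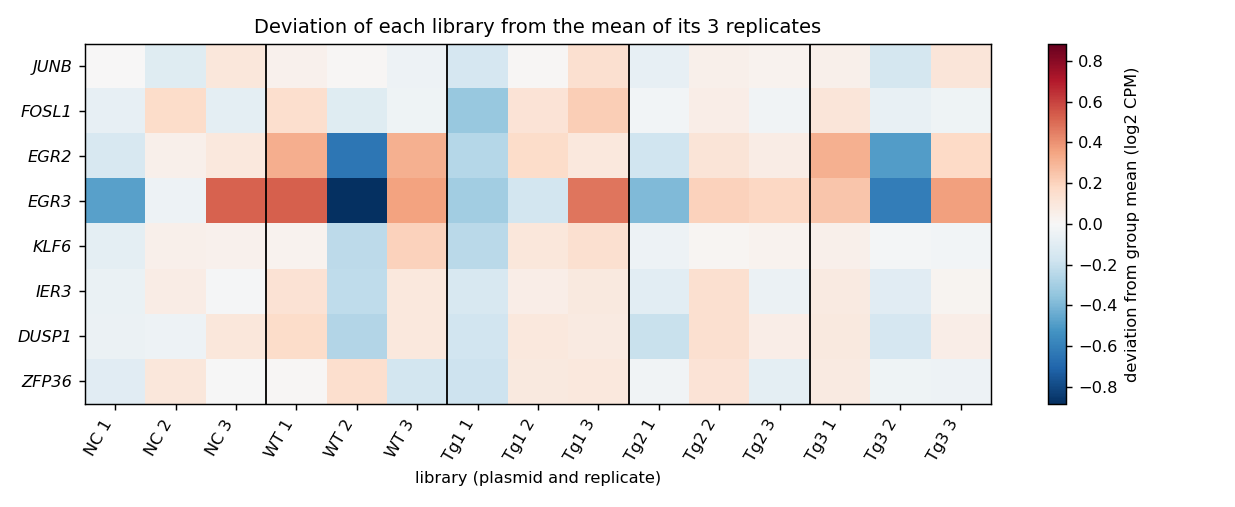
Deviation of each of the 15 libraries (columns, grouped by plasmid) from the mean of its group, on the log2 CPM scale (colour), for the 8 genes (rows). Tg1 replicate 1 is below its group mean for all 8 genes, and EGR3 in WT replicate 2 has the largest deviation, -0.88.

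The genes whose levels were most like those of the members were ranked by Pearson r between the gene's log2 CPM and the mean standardized level of the 8 members over the 15 libraries, among 10126 genes with a symbol. The first 8 were ZC3H12A (r = 0.968), DUSP5 (0.947), BHLHE40 (0.940), MAFF (0.937), IER2 (0.925), AMOTL2 (0.920), CSRNP1 (0.914) and RND3 (0.908). ZC3H12A encodes an endoribonuclease that degrades inflammatory mRNAs, and it was at 31.4, 33.5 and 33.8 CPM in NC, 44.6, 38.7 and 40.2 CPM in WT and 43.7, 44.5 and 44.4 CPM in Tg2. All its 12 libraries with a PKD2 plasmid lay above NC, as in 0.675% of all genes tested. The ranking favours this, because the mean level of the members was lowest in the NC libraries. DUSP5 encodes a nuclear phosphatase of ERK, and it was at 235, 269 and 263 CPM in NC, 395, 301 and 411 CPM in WT and 367, 379.9 and 349 CPM in Tg2. In both genes WT replicate 2 was the lowest WT library, as in 41.6% of all genes tested. The ranking favours this too, because the mean level of the members was lowest of WT there. When deviations from the group means were used in place of levels, 3 of these 8 genes were again among the first 8, namely ZC3H12A, MAFF and IER2.

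Of 38 other immediate-early genes written down as a list, 34 were tested. None was called in WT or Tg3, 3 were called higher in Tg1 (IER2, MYC and PPP1R15A) and 9 higher in Tg2 (these 3, CSRNP1, KLF4, MAFF, NFKBIA, TNFAIP3 and ZFP36L1), and none was called lower. Of all genes tested, 0% were called in WT and in Tg3. The shares called higher and lower were 0.182% and 1.01% in Tg1, and 4.73% and 3.7% in Tg2. The median log2 fold change of the 34 genes was 0.21 for WT, 0.25 for Tg1, 0.24 for Tg2 and 0.13 for Tg3. Before adjustment, p was under 0.05 for 18 genes with WT, 11 with Tg1, 15 with Tg2 and 6 with Tg3. These were 52.9%, 32.4%, 44.1% and 17.6% of the 34, beside 4.54%, 19.9%, 35.2% and 18.1% of all genes tested. DESeq2 called 3 in WT (ATF3, CCN1 and MYC) and MYC in Tg3. MYC, a transcription factor of cell growth, was at 219, 236 and 223 CPM in NC, at 301, 262 and 273 CPM in WT, at 258, 286 and 313 CPM in Tg1, at 318, 341 and 311 CPM in Tg2 and at 293, 281 and 274 CPM in Tg3. For MYC the log2 fold change was 0.34 in Tg1 and 0.52 in Tg2, and the edgeR adjusted p was 0.0246 and 0.00865. IER2, a nuclear protein induced by growth factors, had 0.39 in Tg1 and 0.47 in Tg2, and the edgeR adjusted p was 0.0366 and 0.0134. PPP1R15A, which directs the dephosphorylation of a translation factor during stress, had 0.37 in Tg1 and 0.33 in Tg2.

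In Tg2, NFKBIA, the inhibitor of NF-κB, had a log2 fold change of 0.65 (SE 0.15), and TNFAIP3, a ubiquitin-editing inhibitor of the same pathway, had 0.32 (SE 0.08). The small Maf factor MAFF had 0.67, the nuclear factor CSRNP1 0.57, and ZFP36L1, a relative of ZFP36 with the same kind of role in mRNA decay, 0.56. Krüppel-like KLF4 had 0.52 and was just inside the threshold (edgeR adjusted p = 0.0496). In all 9 genes the 3 Tg2 libraries lay above the 3 NC libraries, which being called higher in this comparison favours. This held for 14 of the 34 genes and for 17.5% of all genes tested.

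FOS and several other well-known immediate-early genes had their highest means in WT. FOS was at 509.5, 518 and 619 CPM in NC, at 838, 524 and 861 CPM in WT, at 600.1, 723 and 705 CPM in Tg1, at 468, 653 and 679 CPM in Tg2 and at 603, 421 and 618 CPM in Tg3. WT replicates 1 and 3 were the highest libraries, and the log2 fold change against NC was 0.43 for WT, 0.30 for Tg1, 0.13 for Tg2 and -0.00 for Tg3. JUN had 0.20 for WT, 0.14 for Tg1, 0.06 for Tg2 and -0.03 for Tg3, EGR1 0.38 for WT, 0.20 for Tg1, 0.26 for Tg2 and 0.17 for Tg3, and their promoter factor SRF 0.16 for WT, -0.04 for Tg1, -0.05 for Tg2 and 0.07 for Tg3. NR4A1, an orphan nuclear receptor, was at 127, 126 and 168 CPM in NC and at 315, 116 and 347 CPM in WT. ATF3, a stress-induced factor, and CCN2, a matricellular growth factor, likewise had their highest levels in WT replicates 1 and 3, with means of 418 ± 116 CPM and 112 ± 48.9 CPM (SD, n = 3) in WT against 266 ± 29.0 CPM and 57.2 ± 5.05 CPM (SD, n = 3) in NC. With all 15 libraries edgeR called none of these 7 genes in any genotype against NC. Without WT replicate 2 it called 6 of the 34 higher in WT, beside 0.208% of all genes. These were CCN2 (1.29), ATF3 (0.86), CCN1 (0.79), PLK2 (0.73), GADD45B (0.66) and FOSL2 (0.39), with edgeR adjusted p from 0.000737 to 0.0245. In a fit of only the groups compared, CCN2 was called in Tg1 and Tg2. NR4A1, ATF3 and CCN2 were chosen for mention after their values were seen.

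**Figure D5:**
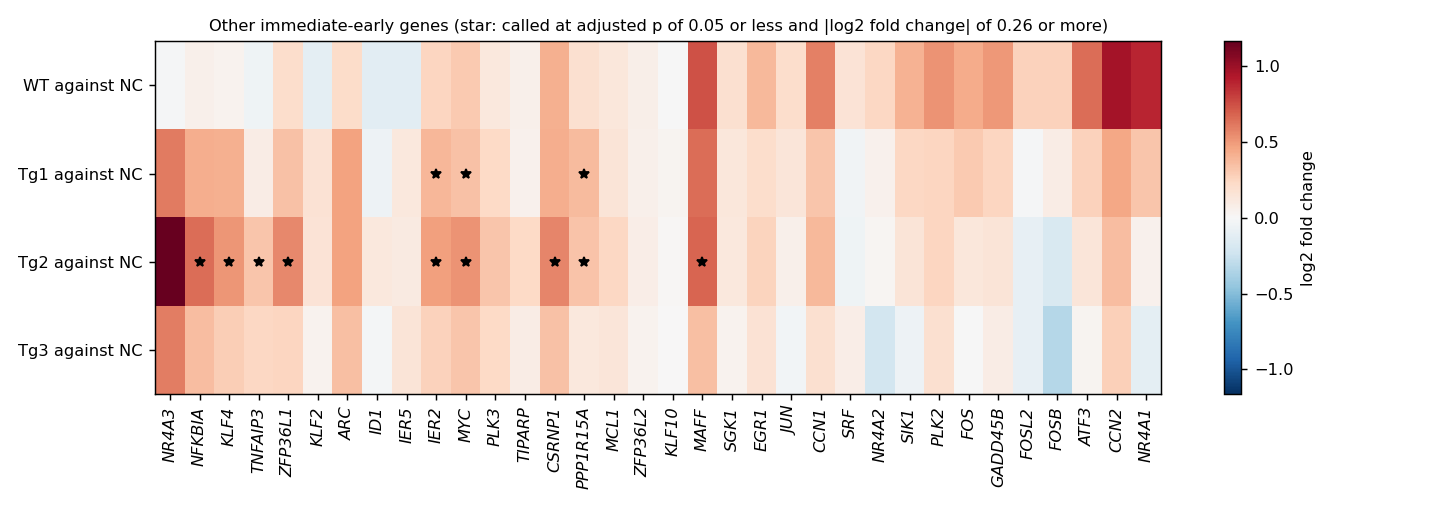
Log2 fold change (colour) of each genotype against NC (rows) for the 34 other immediate-early genes tested (columns, ordered by WT minus Tg2); stars mark genes called by edgeR. Stars stand in the Tg1 row (3 genes) and the Tg2 row (9 genes), and the genes at the right, such as NR4A1, CCN2 and ATF3, are higher in WT than in Tg2.

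Against WT, edgeR called NFKBIA and TNFAIP3 higher and FOSL2, another AP-1 subunit, lower in Tg2, where 3.31% of all genes were called higher and 2.61% lower. None of the 34 was called in Tg1 or Tg3 against WT, with 7 and 13 at p under 0.05 before adjustment. These were 20.6% and 38.2% of the 34, beside 15.6% and 19.2% of all genes tested. The log2 fold change in Tg2 was 0.58 (95% interval 0.26 to 0.91, adjusted p = 0.0374 from edgeR) for NFKBIA. It was 0.37 (0.20 to 0.54, adjusted p = 0.0290 from edgeR) for TNFAIP3 and -0.37 (-0.56 to -0.17, adjusted p = 0.0348 from edgeR) for FOSL2. Without Tg2 replicate 2 edgeR called no gene at all in Tg2 against WT, with 2886 genes at p under 0.05 before adjustment. It also called none without Tg2 replicate 1, without WT replicate 3 or in a fit of only the groups compared. Then 2588, 2256 and 2714 genes had p under 0.05 before adjustment. Without WT replicate 1 it called 1 gene. NFKBIA was at 124, 179.9 and 114 CPM in WT, so that WT replicate 2 was its highest WT library, and at 238, 216 and 172 CPM in Tg2. Without WT replicate 2, 6 of the 34 were called higher and 11 lower in Tg2 against WT, 4 higher and 8 lower in Tg1, and 5 higher and 14 lower in Tg3. Of all genes tested in that fit, 12.1% were called higher and 8.85% lower in Tg2. The shares were 4.28% and 3.12% in Tg1, and 7.25% and 4.18% in Tg3. Among the 11 lower in Tg2 were ATF3 (-0.72), CCN2 (-0.93), NR4A1 (-1.19) and FOS (-0.50), with edgeR adjusted p no higher than 0.0302 for each.

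Genes that restrain ERK and the other MAPKs were described from a list of 15, of which 11 were tested. In Tg2 against NC edgeR called 6 higher and 1 lower, beside the 4.73% and 3.7% of all genes, and it called none in WT, Tg1 or Tg3. There 27.3%, 36.4% and 63.6% of the 11 (3, 4 and 7 genes) had p under 0.05 before adjustment, beside 4.54%, 19.9% and 18.1% of all genes. The 6 were the phosphatases DUSP5 (log2 fold change 0.52), DUSP6 (0.65) and DUSP10 (0.77), the Sprouty proteins SPRY1 (0.63) and SPRY2 (0.36), which inhibit growth factor signalling, and ERRFI1 (0.44), an inhibitor of the EGF receptor. The phosphatase DUSP9 was lower, at -0.42. When single libraries were left out, DUSP6 was called in 3 of 6 fits and each of the other 6 genes in 2. DUSP6, the ERK phosphatase of the cytoplasm, was at 67.4, 79.9 and 65.8 CPM in NC, 81.6, 93.4 and 73.7 CPM in WT and 117, 118 and 99.96 CPM in Tg2. The Tg2 libraries lay above both other groups. DUSP6, DUSP10 and SPRY1 were also called higher in Tg2 than in WT, with log2 fold changes of 0.43, 0.69 and 0.53 (edgeR adjusted p = 0.0377, 0.0374 and 0.0498). Without WT replicate 2, DUSP5 was called higher in WT than in NC (0.66, edgeR adjusted p = 0.0182). It was called lower in Tg3 than in WT (-0.42). DUSP10 was then called higher in Tg3 than in WT (0.62), and DUSP9 lower in Tg2 than in WT (-0.38). Of all genes in that fit, 0.208% were called higher in WT than in NC. Against WT, 7.25% were called higher and 4.18% lower in Tg3, and 12.1% and 8.85% in Tg2.

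Of 25 genes of the ERK pathway and the transcription factors that act on immediate-early promoters, 24 were tested, and with all 15 libraries none was called in any of the 10 comparisons. In 5 cases edgeR gave an adjusted p no higher than 0.05 with a log2 fold change under 0.26 in size before rounding. These were BRAF (-0.26) and ARAF (0.17) in Tg2 against NC, EGFR (-0.25) and MRTFB (-0.21) in Tg1 against NC, and NRAS (-0.15) in Tg2 against WT. BRAF and ARAF encode Raf kinases, EGFR the EGF receptor, MRTFB a coactivator of serum response factor and NRAS a Ras protein. By adjusted p alone, edgeR called 1643 of 11553 genes in Tg2 against NC, 264 in Tg1 against NC and 1099 in Tg2 against WT. Without WT replicate 2, edgeR called RPS6KA5, a kinase that phosphorylates histones downstream of MAPKs, lower than in WT in Tg1 (-0.41), Tg2 (-0.45) and Tg3 (-0.41). It also called EGFR lower in Tg1 (-0.29) and ELK4, a partner of serum response factor, higher in Tg2 (0.54). Of the 24, this was 2 lower in Tg1, 1 higher and 1 lower in Tg2, and 1 lower in Tg3. Of all genes then tested, 4.28% were called higher and 3.12% lower in Tg1, 12.1% and 8.85% in Tg2, and 7.25% and 4.18% in Tg3. Transcript levels do not show the activity of these kinases, which was not measured in these libraries.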

How the data were processed

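RNA of 15 wells of LLC-PK1 cells, 3 for each of 5 plasmids, was sequenced as poly(A)-selected mRNA. Per the study's methods, Salmon estimated transcript abundance from Ensembl's pig cDNA sequences. The deposited table holds raw counts, as whole numbers, for each Ensembl gene. How transcript estimates were summed to genes is not given in the sources used here. Groups and replicate numbers came from the sample labels.

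Genes whose deposited counts averaged at least 2 CPM were kept (11553 of 16660, holding 99.8% of counts). They were tested with edgeR 4.0.16 in R 4.3.3 (TMM normalization, glmQLFit and glmQLFTest, all 15 libraries in a model of group means, Benjamini-Hochberg adjustment over all genes tested), and called genes had an adjusted p-value no higher than 0.05 with a log2 fold change of at least 0.26 in size, as in the study's methods. The 95% intervals come from this fit. Levels are TMM-normalized CPM, and deviations and likeness used log2 CPM with a prior count of 2. With 3 libraries against 3, an exact permutation test cannot give a two-sided p-value under 0.1, so none was used. The fits were tested on simulated counts. The alternatives were DESeq2 1.42.0, its size factors, filterByExpr or no filter, fits limited to the libraries compared, calls by adjusted p-value alone, a block for the replicate number, and fits without single libraries.

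The members and lists were chosen with earlier results of these data known. Of the list genes, FOS, JUN, EGR1 and SRF were to be named, and up to 8 called genes per list with the smallest p-values. KLF4, FOSL2, NR4A1, ATF3, CCN2, CCN1, PLK2, GADD45B and the genes of the ERK pathway were named after their values were seen. Symbols of 13373 identifiers came from a reference table, which does not hold JUND and EGR4. DUSP2, DUSP4 and SPRY4 were under the filter, and BTG2, RHOB, DUSP7 and ELK1 were not analysed here. Same-numbered libraries of different plasmids had a mean correlation of deviations of 0.140, against -0.0710 for the others, and only in WT and NC were all 3 pairs above 0.1 (0.154, 0.544 and 0.457). Columns of the authors' own comparisons were not used.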

Additional observations from a re-analysis of the deposited data

Results flagged for a closer look

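Among the genes described, 6 differed between Tg2 and WT by edgeR's test of that difference, so their difference from NC was not the same in both genotypes. In Tg2 against WT the log2 fold change was 0.58 for NFKBIA, 0.37 for TNFAIP3, 0.43 for DUSP6, 0.69 for DUSP10, 0.53 for SPRY1 and -0.37 for FOSL2. None of them is among the 8 members, for which edgeR called no difference between genotypes with all 15 libraries. WT replicate 2 lay toward the Tg2 level in these genes. For DUSP10 it was at 67.6 CPM beside 46.2 and 40.9 CPM in the other WT libraries and 65.9 to 96.1 CPM in Tg2, and for FOSL2 it was at 152 CPM beside 197 and 202 CPM. Without it the log2 fold changes were 0.81 for NFKBIA, 0.94 for DUSP10, 0.68 for SPRY1 and -0.48 for FOSL2. When single libraries were left out, each of the 6 was called in 2 of 6 fits. In a fit of only the WT and Tg2 libraries edgeR called no gene in Tg2 against WT. Groups of 3 are too small for a test of single outlying libraries.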

How the results depend on the processing

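The direction of no called difference reversed under any alternative. DESeq2 size factors, no filter on low counts, another filter and no fold-change threshold left every count of called members within 1.5 times. DESeq2 called 3 members in WT against NC, 5 in Tg1 against NC (main 3), 4 in Tg3 against NC (main 0) and 1, ZFP36, in Tg2 against WT (main 0). Of the other immediate-early genes it called 3 in WT and 1 in Tg3. A fit of only the groups compared called 5 members in Tg1 against NC and 8 in Tg2 against NC (main 5). With the replicate number as a block, ZFP36 was called in Tg2 against WT (1 member, adjusted p = 0.0170 from edgeR), and no other count of members left the range. Which wells were transfected together is not given in the sources used here. Deviations of same-numbered libraries of Tg2 and WT had correlations of -0.285, 0.243 and 0.549, and 9 of 15 libraries were closest to their own number.

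Leaving out single libraries gave 0 to 5 members in WT against NC (5 without WT replicate 2) and 0 to 4 in Tg1 against NC. The count in Tg1 was 0 without NC replicate 1, NC replicate 3, Tg1 replicate 2 or Tg1 replicate 3, and 1 without NC replicate 2. In Tg2 against NC it was 0 to 5, with 0 without NC replicate 3 or Tg2 replicate 2 and 2 without NC replicate 1. Against WT it was 0 to 2 in Tg1, 0 to 2 in Tg2 (1 without Tg2 replicate 3) and 0 to 4 in Tg3, with the highest values without WT replicate 2. Of the other immediate-early genes, 0 to 6 were called in WT against NC, 0 to 3 in Tg1 and 0 to 13 in Tg2 (main 9), with 0 without NC replicate 3 or Tg2 replicate 2, 1 without NC replicate 1 and 2 without Tg2 replicate 1. The cause of these shifts was not tested. With 3 wells a group, EGR3, at a mean of 3.81 CPM in NC, had the lowest depth and an SE near 0.37.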
